A study of Mus musculus with 12 samples.

Results

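Igf2 and Cdkn1c are imprinted growth genes of distal mouse chromosome 7. Their promoters were followed in a promoter Capture-C comparison of fetal and adult haematopoietic stem cells (HSCs). In this assay, cross-linked chromatin is cut with the restriction enzyme DpnII and ligated, and ligation products of chosen promoters are enriched with oligonucleotide probes, so that each count is a read of a promoter joined to a distal site. Every listed contact was taken whose gene name, without the suffix that numbers alternative promoters, was Igf2 or Cdkn1c. That gave 171 contacts of 89545 in the whole series and 4 promoter entries of 3781. The entries were Igf2 with 5 contacts, Igf2_2 with 83, Igf2_1 with 16 and Cdkn1c with 67. All 4 lay in the first of 2 capture batches, which held 1952 promoter entries and 49944 contacts.

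Fetal HSCs came from livers at embryonic day 14.5 and adult HSCs from bone marrow of mice aged 6 to 8 weeks, both of the B6129SF1 strain. Both were sorted as lineage-negative, Sca1-positive, cKit-positive and CD135-negative, and neither carried a genetic change or treatment that the labels name. Each population had 4 libraries, 2 per batch, but the deposited values are 1 count, 1 score and 1 FPKM per population. Differences between the populations therefore cannot be compared with variation between libraries, and no value carries a replicate error. The other 4 samples of the series, of the HPC7 cell line, were not analysed here.

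Igf2 encodes insulin-like growth factor 2, a secreted growth factor of the fetus that signals through the IGF1 and insulin receptors. It is expressed mainly from the paternal chromosome and shares enhancers with H19, a non-coding RNA gene expressed from the maternal chromosome; a methylated control region between the genes, bound by CTCF on the maternal chromosome, sets which of them the enhancers reach. Cdkn1c encodes p57, an inhibitor of cyclin-dependent kinases of the Cip/Kip family that is expressed from the maternal chromosome and helps to keep HSCs quiescent. It lies in a neighbouring imprinted domain controlled by the Kcnq1ot1 non-coding RNA, which starts inside Kcnq1. The counts do not separate the parental chromosomes.

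Igf2 has several promoters, so each captured fragment was treated on its own. RefSeq places 4 start regions of Igf2 on the minus strand of chromosome 7 (GRCm38.p6), and the 250 bases before each start are printed to show how unlike these alternative promoters are. Capitals mark GATC, the DpnII site at which fragments are cut.
Igf2 promoter 1, chr7:142666817-142667066: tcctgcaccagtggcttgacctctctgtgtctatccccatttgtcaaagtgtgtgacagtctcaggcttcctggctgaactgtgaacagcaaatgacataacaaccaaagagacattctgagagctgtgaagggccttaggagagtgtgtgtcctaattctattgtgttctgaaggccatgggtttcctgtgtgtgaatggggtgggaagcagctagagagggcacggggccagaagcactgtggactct
Igf2 promoter 2, chr7:142661272-142661521: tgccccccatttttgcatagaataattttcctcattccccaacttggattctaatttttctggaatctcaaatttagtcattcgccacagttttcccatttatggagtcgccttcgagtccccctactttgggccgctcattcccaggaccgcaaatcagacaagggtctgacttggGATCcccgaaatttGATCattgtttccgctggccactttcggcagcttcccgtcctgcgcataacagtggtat
Igf2 promoter 3, chr7:142658805-142659054: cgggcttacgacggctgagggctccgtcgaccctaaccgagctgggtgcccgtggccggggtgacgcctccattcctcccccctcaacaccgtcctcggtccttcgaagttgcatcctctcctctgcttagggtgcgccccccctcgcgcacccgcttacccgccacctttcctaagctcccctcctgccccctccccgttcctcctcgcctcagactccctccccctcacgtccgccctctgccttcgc
Igf2 promoter 4, chr7:142657497-142657746: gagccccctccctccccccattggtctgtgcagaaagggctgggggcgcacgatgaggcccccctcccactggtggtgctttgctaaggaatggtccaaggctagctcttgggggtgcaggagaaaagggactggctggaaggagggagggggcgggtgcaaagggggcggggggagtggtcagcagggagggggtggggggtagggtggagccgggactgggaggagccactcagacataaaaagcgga
The GC content was 50.8%, 47.6%, 68.8% and 66.0% in promoters 1 to 4, against a median of 52.4% over 32851 RefSeq mouse promoter windows of that length. Promoter 3 held 22 CpG pairs and promoter 1 held 1, against a median of 6. GATC occurred 2 times in promoter 2 and in none of the other 3, and 41.9% of all windows hold it. GGGCGG, searched on both strands, occurred 1 time in promoter 3 and 2 times in promoter 4, and 32.7% of all windows hold it. The deposited coordinates are in another build, so which of these starts belongs to which captured fragment was not determined.

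The captured fragments lie as follows in the deposited coordinates (mm9, chromosome 7). Igf2_1 is chr7:149843126-149845182 (2057 bp), Igf2_2 is chr7:149846874-149847233 (360 bp) and Igf2 is chr7:149847433-149847867 (435 bp). Igf2_2 and Igf2 are 199 bp apart, and Igf2_1 directly adjoins the captured fragment of Igf2as, an antisense transcript of the locus. Cdkn1c is chr7:150646794-150647466 (673 bp), 800 kb from Igf2_2. In the gene order of RefSeq, Tnni2, Lsp1, Mrpl23 and H19 lie before Igf2, and Ins2, Th, Ascl2, Cd81, Kcnq1 and Kcnq1ot1 lie between Igf2 and Cdkn1c. Phlda2 and Cars follow Cdkn1c.

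Igf2 was expressed in the fetal population and near the lower end in the adult one. The entry Igf2 had an FPKM (fragments scaled to transcript length and sequencing depth) of 36.4 in fetal HSCs and 0.798 in adult HSCs, 45.6 times lower. Igf2_2 had 20.6 and 0.536, and Igf2_1 had 21.7 and 0.561. All 3 Igf2 entries were thus more than 38-fold higher in fetal cells on the FPKM scale. By this ratio of FPKM plus 1, 2 of the 3781 entries exceeded Igf2, 8 exceeded Igf2_1 and 9 exceeded Igf2_2. These ranks count entries, not genes. The 2 above Igf2 were both of H19, and the 8 and the 9 include these and other entries of Igf2. Of the first-batch entries, 5.07% (8.12% of those of both batches) had FPKM plus 1 at least 2-fold higher in fetal cells and 13.3% (14.6%) at least 2-fold higher in adult cells.

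Cdkn1c differed far less. Its FPKM was 11.2 in fetal HSCs against 6.88 in adult HSCs, a ratio of 1.63 and a difference of 0.63 on the log2(FPKM + 1) scale, and 887 entries had a larger ratio towards fetal cells. The authors' deposited table marks both genes as differentially expressed, as it does 35.5% of first-batch entries. H19, the reciprocally imprinted partner of Igf2, had an FPKM of 168 in fetal and 1.63 in adult cells at one entry and of 209 and 2.15 at the other. Phlda2, an imprinted growth restrictor next to Cdkn1c, went the other way, from 0.562 in fetal to 2.26 in adult cells.

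**Figure D1:**
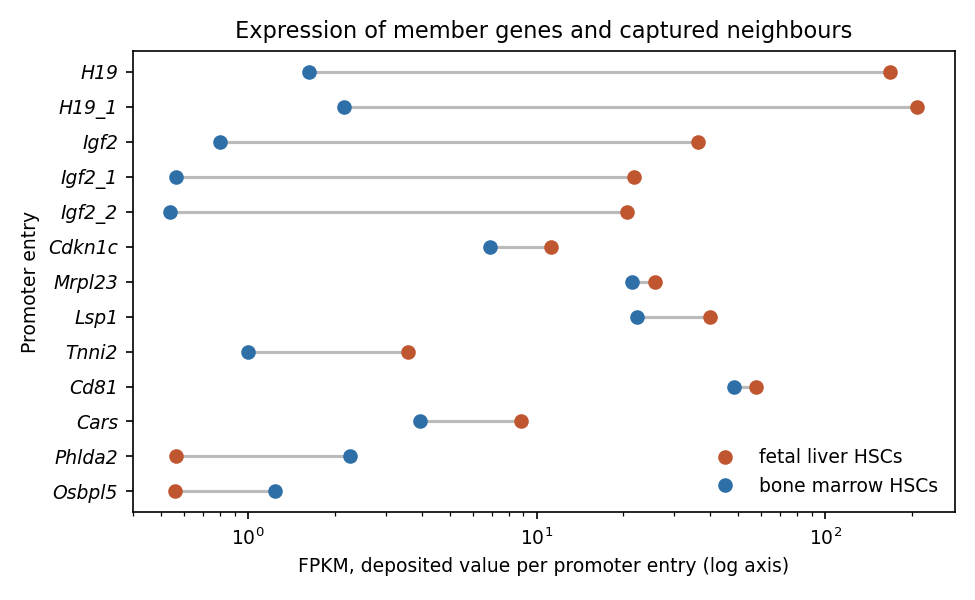
FPKM of the Igf2 and Cdkn1c entries and of captured neighbours on distal chromosome 7 in fetal liver (orange) and bone marrow (blue) HSCs, 1 deposited value per entry and population, on a log axis. The 3 Igf2 entries lie between 20.6 and 36.4 in fetal cells and below 1 in adult cells, while the points of Cdkn1c lie at 11.2 and 6.88.

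In bulk RNA, fewer cells of a type and less RNA per cell cannot be told apart. Markers of other cell types moved with Igf2. Of 7 captured macrophage entries, 6 had FPKM plus 1 at least 2-fold higher in fetal cells, against 8.12% of all entries. The 7 entries had a summed FPKM of 46.8 in fetal and 2.74 in adult cells. Single values were 1.0 to 13.9 and 0.00996 to 1.14. No macrophage entry was at 0. Of 8 erythroid entries, 6 were at least 2-fold higher in fetal cells, with sums of 107 and 31.6. All 3 granulocyte entries were also at least 2-fold higher there, with sums of 60.1 and 3.57. Their part in the Igf2 result was not tested. The only captured fetal hepatocyte marker was Dlk1, itself imprinted, at 31.9 in fetal and 0.942 in adult cells, so Alb and Afp, which define hepatocytes, gave no value here. The 14 entries of stem and progenitor markers lay between 3.80 and 36.3 in fetal and between 4.0 and 62.5 in adult cells. Of them, 4 were at least 2-fold higher in adult cells, against 14.6% of all entries. The 4 belonged to 2 genes, Gata2 and Meis1. Flt3, the gene of CD135, had 6.20 in fetal and 3.81 in adult cells although the sort was CD135-negative. Of 6 endothelial and stromal entries, 1 was at least 2-fold higher in fetal cells and none in adult cells. It was Cdh5, at 2.53 in fetal and 0.00611 in adult cells. The 6 entries summed to 14.3 in fetal and 14.0 in adult cells. Most of both sums came from 2 entries of Pecam1, at 5.82 and 4.74 in fetal and 7.90 and 5.43 in adult cells. No lymphocyte marker was captured.

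The contacts of the 4 entries differed more in number between promoters than between populations. A contact joins a promoter fragment to a distal bin of 2 kb and counts as called in a population where the deposited score of the caller, LiMACC, is above 0. Igf2_2 had 60 fetal and 45 adult calls, and Cdkn1c had 54 and 51, against medians of 11 and 10 over the first batch. Igf2_1 had 11 fetal and 5 adult calls, and Igf2 had 4 and 1. The number of fetal calls placed Igf2_2 at percentile 96.8 and Cdkn1c at 95.5 of the batch, Igf2_1 at 49.6 and Igf2 at 22.7. So 3 fragments that lie within 5 kb of each other ranged from few to many calls.

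Of the 83 contacts of Igf2_2, 38 were called only in fetal, 23 only in adult and 22 in both populations. Of the 67 of Cdkn1c, 16 were fetal only, 13 adult only and 38 in both. Igf2_1 had 11 fetal-only and 5 adult-only contacts, and Igf2 had 4 and 1, with none in both. Over all first-batch contacts, 38.9% were fetal only, 35.4% adult only and 25.7% in both. Cdkn1c therefore had a higher share in both populations, 56.7% (exact Clopper-Pearson 95% interval 44.0 to 68.8), and Igf2_2, at 26.5% (17.4 to 37.3), was near the background. This contrast rests on matching the same 2 kb bin: with an adult call within 5 kb accepted, 78.3% of fetal calls of Igf2_2 and 92.6% of those of Cdkn1c were also found in adult cells, and within 20 kb 98.3% and 94.4%, which turns the order. The same shares were 36.7% and 70.4% with the same bin required, and 39.4%, 63.3% and 81.3% over the fetal calls of the batch within their chromosome at the same bin, 5 kb and 20 kb. Within 20 kb Igf2_1 had 45.5% and Igf2 25.0%. A wider tolerance finds more matches where adult calls lie densely. Igf2_2 had 45 adult calls and Cdkn1c 51, against a batch median of 10. The turned order at 20 kb therefore does not rank these promoters by shared contacts. The Clopper-Pearson intervals reflect counting error alone, and since adjacent bins tend to be called together they are narrower than they should be. For Igf2_1, 0 of 16 contacts in both populations allows a share of up to 20.6%. Among the 187 first-batch entries with at least 60 contacts, the median share in both was 31.8%; 15 entries, Cdkn1c included, reached the share of Cdkn1c.

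**Figure D2:**
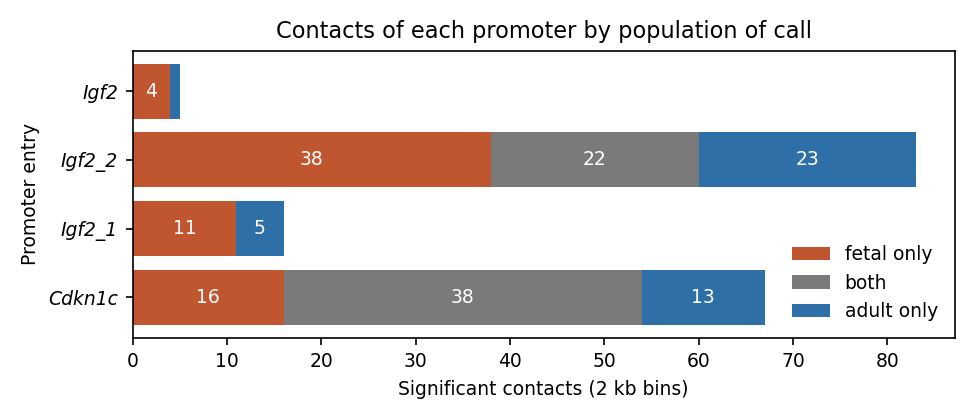
Number of significant contacts of each promoter entry called only in fetal HSCs (orange), in both populations (grey) and only in adult HSCs (blue). Cdkn1c has 38 of 67 contacts in both populations and Igf2_2 has 22 of 83, while Igf2 and Igf2_1 have none.

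Of the contacts called in 1 population, the fetal share was 62.3% (49.0 to 74.4) for Igf2_2, 68.8% (41.3 to 89.0) for Igf2_1 and 55.2% (35.7 to 73.6) for Cdkn1c. The share over the batch was 52.3%, inside all 3 intervals, so no lean of these promoters towards fetal calls was detectable beyond the batch. Many such contacts were near the smallest score above 0, which was 1.3. Within 1 score unit of it lay 39 of the 61 contacts of Igf2_2 called in 1 population, 14 of 16 of Igf2_1, all 5 of Igf2 and 17 of 29 of Cdkn1c. For captured neighbours of the same batch it was 20 of 31 for H19, 30 of 43 for H19_1, 18 of 28 for Igf2as, 23 of 32 for Mrpl23 and 1 of 1 for Cd81. The share over the batch was not computed, so these counts cannot be called particular to Igf2 or Cdkn1c.

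Over its contacts, Igf2_2 had 1575 fetal and 1309 adult counts, a ratio of 1.20, and the ratio over all listed contacts of the batch was 1.19. Cdkn1c had 878 and 917, a ratio of 0.957. Igf2_1 had 152 and 65 (2.34), and Igf2 had 34 and 16 (2.13). Over all contacts Igf2_2 thus lay near the batch, Cdkn1c below it, and the sparse Igf2_1 and Igf2 above it. The Igf2_2 sums include 644 fetal and 587 adult counts from 2 bins next to the promoter. Over 20 kb away, the log2 ratio of its sums was 0.367, against 0.267 over all contacts with an upper counting bound of 0.374. Within 60 kb its ratio was 1.13, against 1.23 in the batch. In the classes from 60 to 150 kb, 150 to 300 kb and beyond it was 1.26 to 1.34, against 1.13 to 1.17. Since a contact enters the table through the population in which it is called, sums over entries whose calls are mostly fetal only are raised in fetal cells by that choice.

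The median per contact of log2((fetal + 1)/(adult + 1)) was 0.38 for Igf2_2 (order-statistic 95% interval 0.23 to 0.51) and 0.00 for Cdkn1c (-0.25 to 0.13), against 0.15 over the batch. It was 1.37 for Igf2_1 (0.58 to 2.50) and 1.0 for Igf2 (-0.36 to 3.00). Most contacts of these entries, 11 of 16 and 4 of 5, were listed through a fetal call alone. That choice raises both medians and the shares of 2-fold higher fetal counts given next. At least a 2-fold higher fetal count, by this ratio, was found at 19 of 83 contacts of Igf2_2, 11 of 16 of Igf2_1, 3 of 5 of Igf2 and 9 of 67 of Cdkn1c, against 21.1% of the batch. The share of Igf2_2, 22.9%, was near that background and the share of Cdkn1c, 13.4%, was below it. At least a 2-fold higher adult count was found at 4 contacts of Igf2_2, 1 of Igf2_1, none of Igf2 and 5 of Cdkn1c, against 14.3% of the batch.

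The contacts of Igf2_2 formed several clusters on the side of H19, Mrpl23, Lsp1 and Tnni2. Of its 83 contacts, 81 lay at lower coordinates, as did all 16 of Igf2_1, all 5 of Igf2 and 66 of 67 of Cdkn1c. Such one-sidedness is not particular to these genes: of 183 first-batch entries with at least 60 contacts within their chromosome, 22 (12.0%) had at least 95% of them on 1 side. The contacts of Igf2_2 and Cdkn1c did not meet. The highest bin of Igf2_2 and the lowest of Cdkn1c start 40 kb apart, and no bin was in common. Both of these outermost bins were fetal only, with 9 fetal and 2 adult counts for Igf2_2 and 9 and 4 for Cdkn1c.

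The bins with the highest counts of Igf2_2 were next to it. The bin at chr7:149844001-149846001, which holds the captured fragments of Igf2_1 and Igf2as, had 450 fetal and 393 adult counts, or 1.15 (exact conditional binomial 95% interval 0.998 to 1.31), and was called only in adult cells with a score of 1.66. The bin at chr7:149850001-149852001 had 194 counts in each population and was called in both. Beyond these bins, no count of Igf2_2 exceeded 27.

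The strongest adult score of Igf2_2 lay at the Mrpl23 promoter, 128 kb away; Mrpl23 encodes a protein of the mitochondrial ribosome. The bin at chr7:149718001-149720001 had 26 fetal and 25 adult counts, with a score of 12.79 in adult cells and 0 in fetal cells. The next bin, which also holds the Mrpl23 fragment, had fewer fetal counts, 20 against 10 in adult cells, and was scored 5.15 and 2.15. A bin with more fetal reads was therefore left uncalled in fetal cells beside one that was called. Seen from the other end, Mrpl23 contacted the bin that holds the Igf2 and Igf2_2 fragments in both populations, with 28 fetal and 23 adult counts and scores of 3.12 and 10.03. Igf2_1 had the same Mrpl23 bin with 19 fetal and 10 adult counts and scores of 0 and 3.24.

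An adult-only call at a bin with as many or more fetal reads was not limited to Mrpl23. It was found at 5 of 23 adult-only contacts of Igf2_2, 3 of 5 of Igf2_1, 0 of 1 of Igf2 and 0 of 13 of Cdkn1c, against 4.96% of adult-only contacts of the batch. The other cases of Igf2_1 were the bins of the H19 promoters, at chr7:149762001-149764001 with 14 fetal and 9 adult counts and at chr7:149764001-149766001 with 16 and 11. In these bins the population of the call is not the population with more reads. The reverse, a fetal-only call with as many or more adult reads, was found at no contact of the 4 entries and at 0.994% of fetal-only contacts of the batch.

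Among runs of bins, joined where they lay up to 5 kb apart, the one of Igf2_2 with the highest share in both among runs of at least 5 bins was at Tnni2, which encodes a troponin subunit of fast skeletal muscle. It covered 9 bins of chr7:149616001-149634001, 7 of them called in both, with 98 fetal and 91 adult counts (ratio 1.08, 0.801 to 1.45). The run with the most bins, 14 of chr7:149714001-149742001 around Mrpl23, had 204 fetal and 146 adult counts (1.40, 1.12 to 1.74). Fetal-only bins in it included chr7:149730001-149732001, with 18 and 7 counts, and chr7:149714001-149716001, with 15 and 7.

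Some runs farther out were called mainly in fetal cells. The run at chr7:149496001-149528001, 320 to 350 kb away, had 7 fetal-only bins of 10 and 85 fetal against 58 adult counts (1.47, 1.04 to 2.08). The run at chr7:149658001-149674001 had 6 fetal-only bins of 8 and 75 against 50 counts (1.5, 1.03 to 2.19). In these runs and the one around Mrpl23 the lower bound lies under the batch ratio of 1.19. The 3 bins of chr7:149554001-149560001, 288 to 292 kb away, were all fetal only, with 26 against 10 counts (2.6, 1.21 to 6.04). The single contact with the highest fetal score, 6.55, was at chr7:149704001-149706001, with 19 fetal and 6 adult counts (3.17, 1.22 to 9.69), and was also fetal only. Fetal-only bins are listed through their fetal call, so a higher fetal count is partly built in. Their intervals therefore cannot be set against the batch ratio.

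Nearer to Igf2_2, the run at chr7:149782001-149800001, 48.1 to 64.1 kb away between H19 and Igf2, had no fetal-only bin, 5 adult-only and 2 in both. It nonetheless held 139 fetal and 119 adult counts, a ratio of 1.17 (0.908 to 1.5), near that of the batch. The fetal share of contacts called in 1 population was larger in the farther distance classes, as in the batch up to 300 kb. For Igf2_2 it was 16.7% within 60 kb, 58.8% from 60 to 150 kb, 70.8% from 150 to 300 kb and 71.4% beyond, against 31.9%, 43.6%, 61.5% and 54.5% in the batch. The intervals of Igf2_2 hold the batch value in each class.

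**Figure D3:**
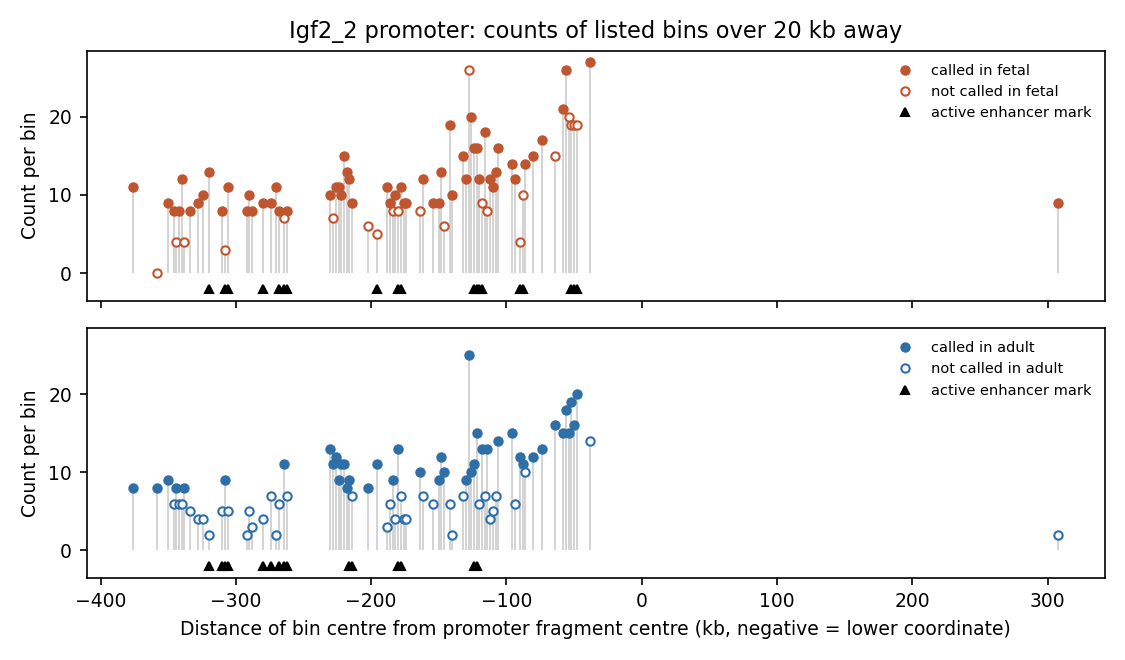
Counts of the 81 Igf2_2 contacts over 20 kb away against distance from the promoter (kb) in fetal (top) and adult (bottom) HSCs; filled circles are called in that population, open circles are not, and triangles mark active enhancer bins. All but 1 contact lie at negative distance, and the bin at the Mrpl23 promoter has 26 fetal counts without a call against 25 adult counts with one.

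The 3 Igf2 entries did not give the same contacts. Of the 16 bins of Igf2_1, 10 were also bins of Igf2_2, and at those 10 the call was of the same kind at 6 and opposite at 1. Over them, Igf2_1 had 85 fetal and 40 adult counts and Igf2_2 had 133 and 99. The highest fetal score of Igf2_1, 3.12, was at chr7:149666001-149668001, with 10 fetal and 2 adult counts (5.00, 1.07 to 46.9). Igf2_2 had 8 and 13 counts in that bin (0.615, 0.221 to 1.60) and was called only in adult cells. The calls of the 2 promoters were thus opposite there. The interval of Igf2_2 holds 1 and overlaps that of Igf2_1, whose contact was listed through its fetal call alone, so opposite count changes are not shown. The contact of Igf2_1 with the highest count ratio among its 3 highest fetal counts, at chr7:149784001-149786001, had 16 and 2 counts (8.00, 1.88 to 71.7).

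The entry Igf2 had single-digit counts throughout. Its 4 fetal-only contacts had fetal counts of 6 to 8 and adult counts of 0 to 3, and its adult-only contact, at chr7:149628001-149630001, had 6 fetal and 8 adult counts. Of its 5 bins, 4 were also bins of Igf2_2, with the same kind of call at none. At chr7:149616001-149618001 Igf2 had 8 fetal and 2 adult counts while Igf2_2 had 10 and 13. The contact at chr7:149496001-149498001 had 7 fetal and 0 adult counts, and the lower bound of the exact conditional interval of its ratio was 1.44. It was listed through its fetal call alone. In the same bin Igf2_2 had 9 fetal and 9 adult counts and was called in both populations.

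The promoter of another gene most like Igf2_2 in its bins was H19_1, with 48 bins in common, which were 57.8% of the bins of Igf2_2 and 65.8% of those of H19_1. Lsp1 had 36 in common, Tnni2 32 and Mrpl23 28; the Lsp1 and Tnni2 entries are of the second batch. At the 48 bins in common with H19_1 the call was of the same kind at 17 and opposite at 8. Cdkn1c had bins in common only with Phlda2, 10 of them, which were 14.9% of its bins and 47.6% of those of Phlda2. The Phlda2 entry is also of the second batch, where the smallest score above 0 was 2.0 against 1.3 in the first.

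The contacts of Cdkn1c were concentrated in 1 block that both populations held. It covered 36 bins of chr7:150304001-150388001, 260 to 342 kb from the promoter on the side of Kcnq1, of which 32 were called in both, 4 only in fetal and 0 only in adult cells. The block summed to 582 fetal and 615 adult counts, a ratio of 0.946 (0.843 to 1.06), below the batch ratio of 1.19. That batch ratio is over all listed contacts, whereas most bins of the block were called in both populations. Over batch contacts called in both, the median log2 ratio per contact was 0.093, and the ratio of their sums was not computed. Its top was at chr7:150338001-150340001, with 42 fetal and 37 adult counts and scores of 26.77 and 21.89, the highest of any Igf2 or Cdkn1c contact in each population. The neighbouring bin had 34 and 31 counts. Both were marked as active enhancer in both populations.

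Inside the block, 16 bins had more adult counts, 15 more fetal counts and 5 equal counts. The interval of the ratio lay below 1 at 2 bins (5.56% of 36, against 4.08% of the contacts of the batch) and above 1 at none. At chr7:150344001-150346001 there were 20 fetal and 37 adult counts, 1.85-fold higher in adult cells (1.05 to 3.36), and at chr7:150368001-150370001 there were 11 and 25, 2.27-fold higher (1.08 to 5.12). Both bins were called in both populations. The bin at chr7:150362001-150364001 had 21 fetal and 11 adult counts (1.91, 0.880 to 4.38). Of the 36 bins, 27 carried no deposited mark of any kind in either population. The share of batch contacts without any mark was not computed, but 21440 of the 49944 carried no ATAC mark in either population.

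A second run of Cdkn1c, 11 bins of chr7:150470001-150500001 that lay 148 to 176 kb away, had 5 fetal-only bins, 3 adult-only and 3 in both, with 115 and 106 counts. From 60 to 150 kb Cdkn1c had 3 fetal-only and 7 adult-only contacts and none in both. The fetal share of these, 30.0% (6.67 to 65.2), held the batch value of 43.6% within its interval. One of them, at chr7:150524001-150526001, had 6 fetal and 15 adult counts (2.50-fold higher in adult cells, 0.917 to 7.86). Its only contact at a higher coordinate was the bin of the Cars promoter, which serves a cysteinyl-tRNA synthetase gene, with 12 fetal and 2 adult counts (6.00, 1.34 to 55.2).

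**Figure D4:**
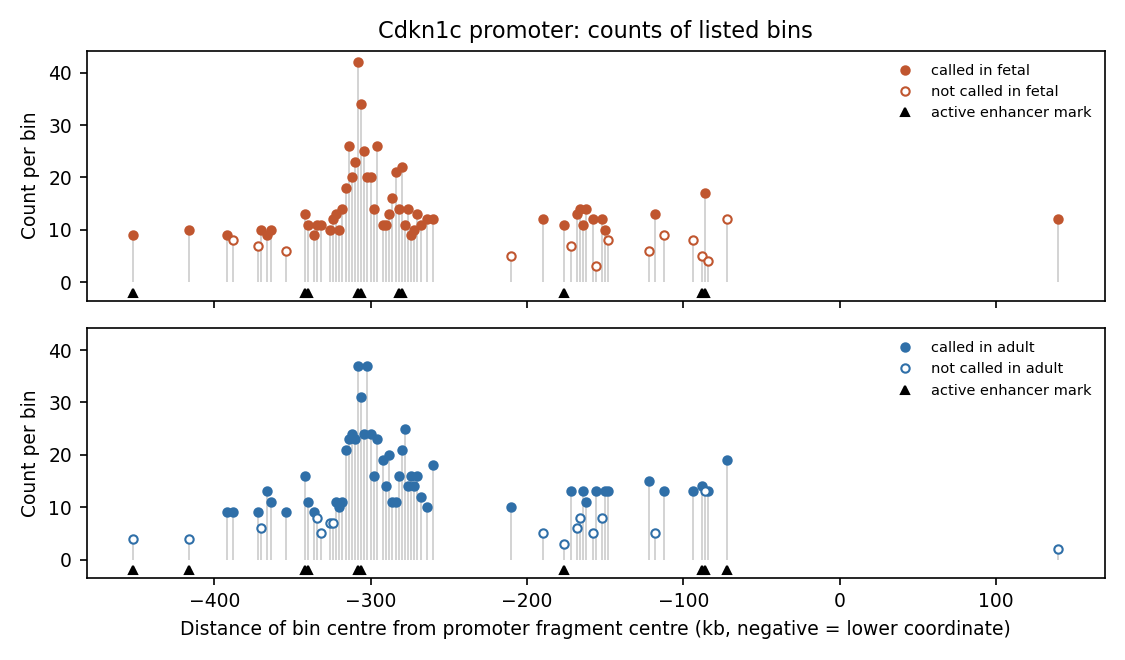
Counts of the 67 Cdkn1c contacts against distance from the promoter (kb) in fetal (top) and adult (bottom) HSCs; filled circles are called in that population, open circles are not, and triangles mark active enhancer bins. The block 260 to 342 kb away stands up in both panels and reaches 42 counts in fetal and 37 in adult cells.

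The share of Cdkn1c contacts in both populations was high at the distances of this block. It was 69.0% from 150 to 300 kb (49.2 to 84.7) and 64.3% beyond 300 kb (44.1 to 81.4), where the batch had 23.0% and 16.4%. Igf2_2 had 25.0% (11.5 to 43.4) and 12.5% (1.55 to 38.3) in these classes, near the batch.

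**Figure D5:**
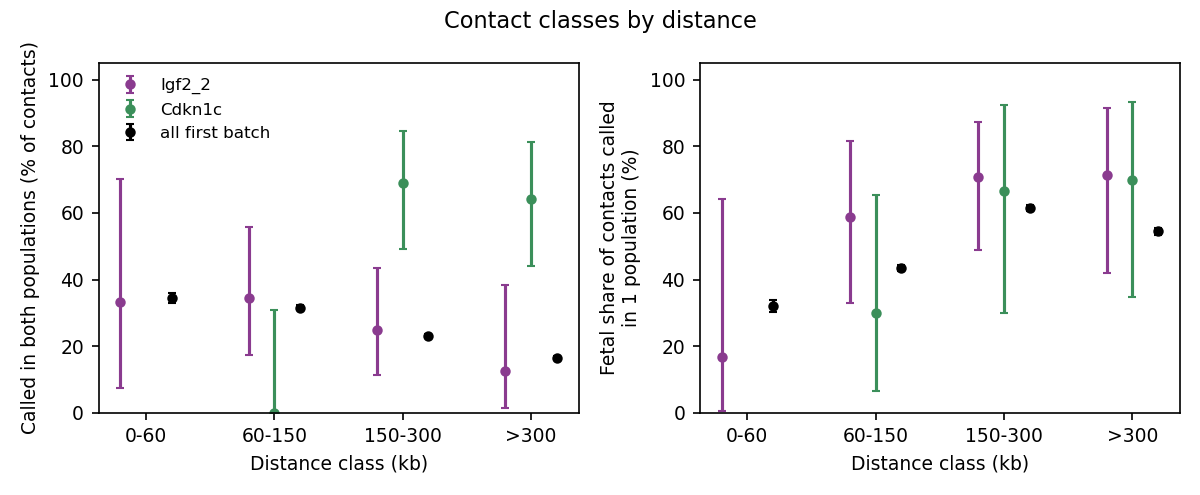
Percent of contacts called in both populations (left) and fetal share of contacts called in 1 population (right) by distance class for Igf2_2, Cdkn1c and the whole first batch; bars are exact 95% binomial intervals, which cover counting error only. Cdkn1c lies at 69.0% and 64.3% in the outer classes of the left panel, above the batch at 23.0% and 16.4%.

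The distal bins were compared by their deposited chromatin marks. For Igf2_2, 15% of the fetal calls (7.10 to 26.6) were at active enhancer bins, and so were 13.3% of the adult ones (5.05 to 26.8). For Cdkn1c the shares were 16.7% and 11.8%, against 12.7% and 13.1% in the batch. These shares are near the background. Of the calls of Igf2_1, 4 of 11 in fetal (10.9% to 69.2%) and 0 of 5 in adult cells (0% to 52.2%) were at active enhancer bins. These intervals overlap and each holds the batch share, and 3 of the 4 bins carried the mark in both populations. Open chromatin by ATAC was marked at 33.3% of fetal (21.1 to 47.5) and 29.4% of adult (17.5 to 43.8) calls of Cdkn1c, below the 53.0% and 54.6% of the batch. For Igf2_2 the shares were 46.7% and 53.3%. Active promoter bins were rare for both, at 1.67% of fetal and 6.67% of adult calls of Igf2_2 and 3.70% and 3.92% of those of Cdkn1c, against 15.6% and 18.3% in the batch.

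At Igf2_2, bins marked as active enhancer only in fetal cells were mostly called only in adult cells. Of 8 such contacts, 7 were adult only, 1 fetal only and none in both, so 87.5% (47.3 to 99.7) of those called in 1 population were adult only, against 45.1% (42.6 to 47.7) in the batch. Over the 3 Igf2 entries together it was 77.8% (40.0 to 97.2), an interval that holds the batch value, since the 1 such contact of Igf2_1 was fetal only. Summed counts at the 8 contacts of Igf2_2 were 97 in fetal and 108 in adult cells. Of 4 contacts at bins marked only in adult cells, 3 were fetal only and 1 was in both. This split was looked at after the values had been seen, and it rests on a few neighbouring bins.

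Other genes of these pathways lay on both sides. Of 25 genes in a list of the IGF pathway, 12 were captured, at 19 entries, of which 7 had FPKM plus 1 at least 2-fold higher in fetal cells and 1 in adult cells, against 8.12% and 14.6% of all entries. The 7 belonged to 5 genes, with 3 of them entries of Grb10. The list median of the log2 ratio was 0.04, against -0.13 over all entries. The RNA-binding proteins Igf2bp1, Igf2bp2 and Igf2bp3, which bind Igf2 mRNA, were among the fetal ones, with Igf2bp1 at 6.43 in fetal and 0.0172 in adult cells. Grb10, an imprinted adaptor that restrains insulin and IGF receptor signalling, was at 33.0 and 14.5 at its first entry, and Igf1 was at 2.70 and 0.403.

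Of 19 genes in a list for entry into the cell cycle, 13 were captured, at 16 entries, of which 1 was at least 2-fold higher in fetal and 3 in adult cells, with a list median of -0.10. These counts are near the 8.12% and 14.6% of all entries. Ccne1, which encodes cyclin E1, was the fetal one at 14.7 and 2.74. The adult ones were both entries of Cdkn2c, which encodes the inhibitor p18 of CDK4 and CDK6, at 0.706 and 3.26 for the first, and Rbl2, at 3.16 and 7.71. Of the other Cip/Kip inhibitors, Cdkn1b, which encodes p27, was at 3.35 and 5.78, and Cdkn1a, which encodes p21, at 1.71 and 1.14 at its first entry. By FPKM, Cdkn1c had the highest level of these 3 inhibitor genes in each population.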

How the data were processed

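Capture-C libraries of 8 HSC samples were used as 1 deposited table of contacts. The submitters' processing notes name mm9, Trim Galore 0.41 and Bowtie2 2.2.2, with no role or order; treatment of duplicate reads is not given in the sources used here. The authors deposited a whole-number count, a caller score (0 where not called), an FPKM and marks of 0 or 1 for distal bins, per population; how the FPKM and marks were made is not stated, nor whether counts sum or average libraries. First-batch counts sum to 1312829 (fetal) and 1098957 (adult) over listed contacts, which is not library depth.

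Classes, ratios, runs and intervals were computed in Python 3.11.15 with pandas 2.3.3 and scipy 1.17.1, and the functions were tested on simulated data. A pseudocount of 1 was added in log2 ratios, which understates changes of weakly expressed genes. No test across libraries was possible. Named contacts were the 3 highest counts and scores per promoter and population and the 3 largest count ratios in each direction among contacts with at least 20 counts; others were chosen after their values were seen. Members and lists were chosen with earlier results of these data known. RefSeq promoter windows held Igf2 and were matched by symbol.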

Additional observations from a re-analysis of the deposited data

How the results depend on the processing

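No paired analysis was possible because the deposited values are pooled per population; leaving out a library and a count model per library could not be run for the same reason. Of 79 alternative values, 64 stayed within the counting interval of the reported value or, for bins in common, within 1.5 times it; among them, the fetal share of calls fell to 50%, with no lean left, for Igf2_2 with merged bins and for Igf2_1 at the stricter score. Merging neighbouring bins turned the fetal share of Cdkn1c calls from 51.4% to 47.8%. With bins within 5 kb taken as overlapping, the share of fetal calls also found in adult cells moved from 36.7% to 78.3% for Igf2_2 and from 70.4% to 92.6% for Cdkn1c; within 20 kb it was 98.3%, 94.4% and, for Igf2_1, 45.5%. Bins within 5 kb raised the bins in common between Cdkn1c and Phlda2 from 10 to 16. With counts scaled to equal batch totals, the median log2 count ratio of Igf2_2 was 0.14, and the log2 ratio of summed counts was 0.010 for Igf2_2 and -0.32 for Cdkn1c. Scaling lowers the batch values as well. The scaled values are therefore not to be set against the unscaled batch median of 0.15 or batch ratio of 1.19. With a pseudocount of 0.1, the log2 FPKM ratio was 5.35 for Igf2, 5.03 for Igf2_2, 5.05 for Igf2_1 and 0.70 for Cdkn1c. Active enhancer marks of either population covered 28.9% of adult calls of Igf2_2. At the stricter score of 2.3, Igf2 had no calls and gave no value. Distance classes, runs, adult-only contacts with as many fetal counts, and bins marked in 1 population were alternatives chosen after seeing the data. Low counts limit single contacts of Igf2 and Igf2_1 most.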

Other observations

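Of 31 genes in a list of other imprinted genes, 8 were captured, at 13 entries. FPKM plus 1 was at least 2-fold higher in fetal cells at 6 entries and in adult cells at none, against 8.12% and 14.6% of all entries. The 6 belonged to 3 genes: Grb10, Mest and Dlk1. The list had a median log2 ratio of 1.0 against -0.13 over all entries. Dlk1, a paternally expressed ligand-like membrane protein, was at 31.9 in fetal and 0.942 in adult cells, Mest at 3.46 and 0.107 at its first entry, and the 3 entries of Grb10 at 26.2 to 36.7 and 11.5 to 16.6. Zrsr1 was lower in fetal cells, at 0.578 and 1.93, and Gnas was at 87.9 and 92.5. Grb10 is also in the IGF pathway list, and Dlk1 also in the fetal hepatocyte list.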
